A study of Mus musculus with 18 samples.

Results

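The comparison set the softest, most weakly tethered substrate of a 6-substrate experiment against the stiffest, most strongly tethered one. E14 mouse embryonic stem cells (mESCs), an established line whose strain and genotype are labelled 129m wt, were kept for 24 h in medium with serum and the cytokine LIF on fibronectin-coated StemBond gels. These are polyacrylamide gels in which the co-factor AHA (6-acrylamidohexanoic acid) supplies the points that bind extracellular matrix (ECM) covalently, so that more AHA means stronger tethering. The members were the 3 libraries labelled Soft16 (soft gel near 750 Pa, 16 mM or low AHA) and the 3 labelled Stiff80 (stiff gel near 160 kPa, 80 mM or high AHA), 6 of the 18 libraries in the series. They are called soft/low AHA and stiff/high AHA here, and every difference is soft minus stiff. Stiffness and tethering both changed between them, so neither can be credited with a difference in this comparison alone. The labels say that there were 3 samples per condition but not whether these were separate cultures, so p-values measure the spread between these samples, which may be technical.

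Cells hold a substrate through integrins, receptors that bind fibronectin or laminin outside the cell and connect inside, through the plaque proteins of focal adhesions, to actin. Tension on actin is known to act on transcription through the co-activators MRTF, which works with SRF, and YAP, which works with TEAD factors. In mESCs, LIF signalling through STAT3 and a network that includes Nanog and Esrrb maintains naive pluripotency, while ERK signalling favours its exit.

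Gene counts were 7205969 to 7958801 in the soft/low AHA libraries and 5850621 to 9290261 in the stiff/high AHA libraries. ERCC spike-in RNA took 0.607 to 0.725% and 0.654 to 0.713% of them. A further 3 shares did not overlap between the groups. Reads that the counting assigned to no annotated gene feature were 24.7 to 25.3% on soft/low AHA and 23.7 to 24.1% on stiff/high AHA gels. They are called reads outside genes here, and whether they include reads in introns was not tested. Unaligned reads were 36.1 to 36.3% and 36.4 to 38.5%, and the protein-coding share of gene counts was 68.6 to 69.0% and 70 to 71.6%. Markers of embryonic stem cells were present in every library, and the summed level of 8 of them was 2056 to 2176 CPM on soft/low AHA and 1997 to 2065 CPM on stiff/high AHA gels. CPM are counts relative to the TMM-scaled total of all tested protein-coding genes in a library, and they do not correct for gene length, so they are compared here between groups and not between genes.

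On soft/low AHA gels 14 of 28 tested focal adhesion genes, 12 of 30 actomyosin and actin-binding genes, 6 of 8 intermediate filament genes, 9 of 22 TEAD target genes and 4 of 18 integrin genes were lower than on stiff/high AHA gels, and 7 of 20 naive pluripotency genes were higher. The other members of these lists did not pass the test, except 1 actomyosin gene that was higher. Most of the differences were small. Of 13438 protein-coding genes tested with edgeR's quasi-likelihood test, 502 had a Benjamini-Hochberg adjusted p under 0.05 (called), which is 3.74%. Of these, 193 were higher (1.44%) and 309 lower (2.3%) on soft/low AHA gels. The median size of a called log2 fold change was 0.30, 256 of the 502 were under 0.3, 96 were over 0.5 and 16 over 1. In 479 of the 502 genes the soft and stiff libraries did not overlap, against 2565 of all 13438 genes (19.1%). The 502 were chosen by a test on these libraries, so their separation is not a further test. In bulk RNA, fewer cells that express a gene and less RNA per cell cannot be told apart. The number of called genes fell to 284 without soft/low AHA replicate 1 and to 292 without stiff/high AHA replicate 3, with 272 and 279 of the 502 still called. When the share of reads outside genes was added to the model as a covariate, a fit chosen after the data were seen, 42 genes were called, of which 40 were among the 502, and 499 of the 502 kept their sign. With the unaligned share in its place, 206 were called. Because these shares separate the groups, they cannot be told apart from the comparison itself.

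**Figure D1:**
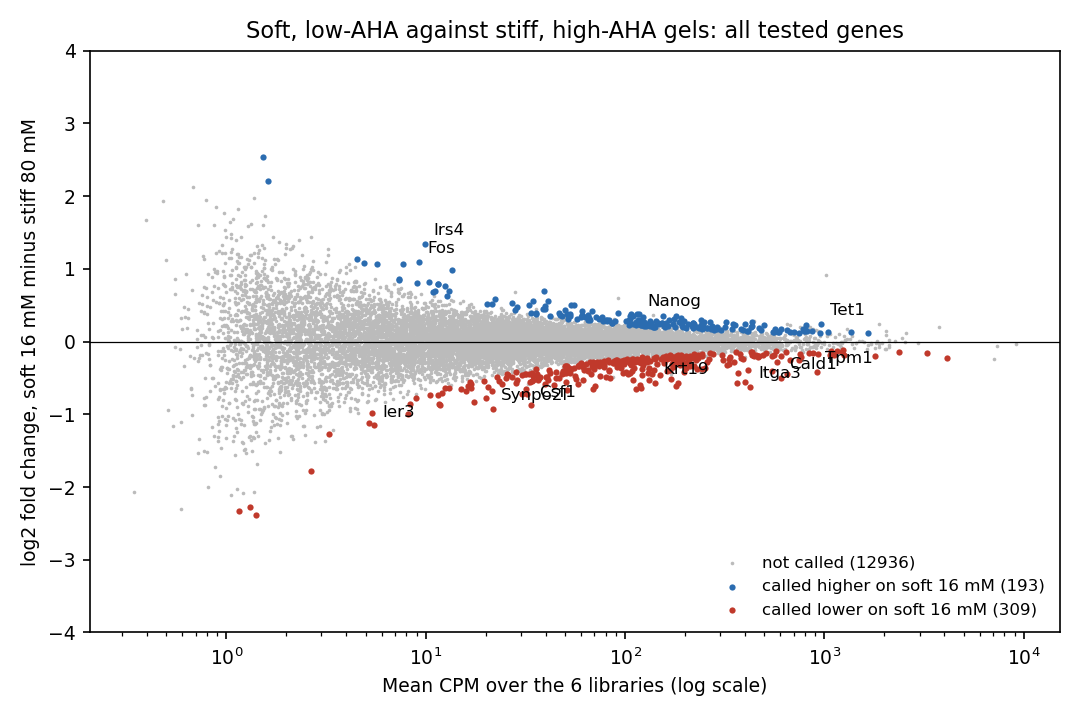
Log2 fold change (soft/low AHA minus stiff/high AHA) of each of 13438 tested genes against its mean CPM over the 6 libraries on a log axis, with called genes in colour. The 309 lower and 193 higher genes lie at small fold changes where expression is high, and the widest fold changes lie at the low end of expression.

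The largest changes, taken as the 10 highest and 10 lowest log2 fold changes among called genes with a mean of at least 5 CPM, were found mainly in genes of low level, and 19 of them are described. Csf1, which encodes the macrophage growth factor M-CSF (chromosome 3, 107741048 to 107760469, build GRCm38), was measured at 22.1, 24.3 and 25.4 CPM on soft/low AHA and at 45.6, 38.1 and 47.5 CPM on stiff/high AHA gels. All 3 soft libraries lay below all 3 stiff libraries, and the log2 fold change was -0.88 ± 0.12 (SE, adjusted p = 2.48e-08). Synpo2l, an actin-associated synaptopodin family member, was at 14.6, 17.9 and 12.5 CPM on soft/low AHA and 28.5, 26.0 and 30.4 CPM on stiff/high AHA gels (-0.92 ± 0.15, adjusted p = 3.8e-06). Ghr, the growth hormone receptor, fell by 0.83 on the log2 scale (SE 0.17, adjusted p = 0.0004), and Trim67, a ubiquitin ligase family member, by 0.88 (SE 0.20, adjusted p = 0.00145).

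In the other direction, the immediate early transcription factor Fos was measured at 12.4, 13.2 and 12.7 CPM on soft/low AHA gels and at 6.60, 4.34 and 6.54 CPM on stiff/high AHA gels. Its log2 fold change was 1.10 ± 0.24 (SE, adjusted p = 0.000736), and the soft libraries lay within a narrow range above all stiff ones. Irs4, an adaptor of insulin and IGF receptors, was at 12.8, 16.2 and 13.3 CPM against 5.06, 8.19 and 3.89 CPM (1.35 ± 0.29, adjusted p = 0.00263). The replication-dependent histone gene Hist1h2ak rose by 0.99 (SE 0.21, adjusted p = 0.000508), but 15.1 CPM in its lowest soft library lay next to 14.9 CPM in its highest stiff library. It belongs to a family of near-identical genes and 35.1% of its exon bases lie opposite another gene, so its count is uncertain.

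The other 12 of these 19 genes were, among the lower, the immediate early gene Ier3, the zinc-finger gene Gm14295, the GATA co-factor gene Zfpm2, the collagen gene Col8a1, the endothelin gene Edn1 and the Notch ligand gene Dll3. Among the higher were the homeobox gene Lhx6, the ubiquitin ligase gene Fbxo32, the methyltransferase gene Etfbkmt, the occludin gene Ocln, the aldehyde dehydrogenase gene Aldh1b1 and the RNA-binding protein gene Rbm4. Each of the 12 lost its call when at least 1 library was left out. Without stiff/high AHA replicate 3, 9 of the 19 were no longer called (adjusted p of 0.0644 to 0.383), against 3 without stiff/high AHA replicate 1, 4 without replicate 2, and 6, 6 and 5 without soft/low AHA replicates 1, 2 and 3. The log2 fold change moved by more than 1.5 times in Gm14295, to -0.72 without soft/low AHA replicate 3, in Col8a1, to -0.58 without stiff/high AHA replicate 1, and in Rbm4, to 0.48 without stiff/high AHA replicate 3. Csf1 alone of the 19 was called with reads outside genes as a covariate.

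**Figure D2:**
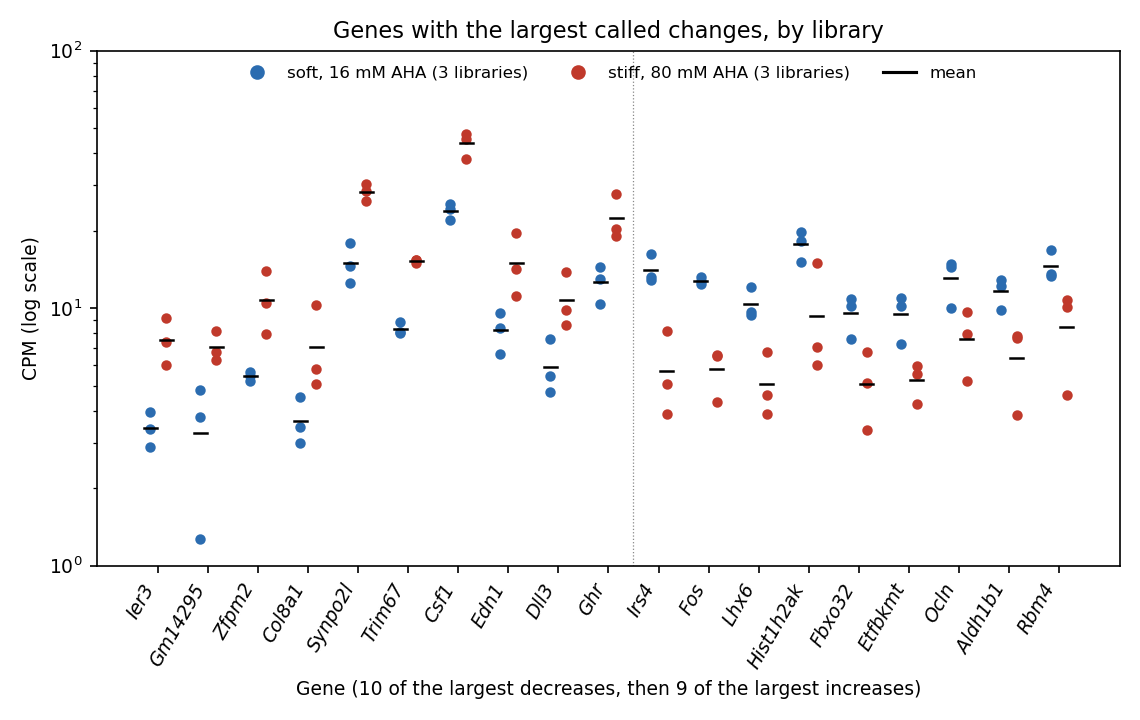
CPM on a log axis in each of the 3 soft/low AHA (blue) and 3 stiff/high AHA (red) libraries for the 10 largest decreases and 9 of the 10 largest increases, with bars at the means. The groups do not overlap in any of the 19 genes, but in Hist1h2ak and Ocln the nearest libraries of the groups are close to each other.

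Among integrin genes, Itga3 had the lowest adjusted p. It encodes the laminin-binding integrin subunit α3 (chromosome 11, 95044474 to 95076801). Its levels were 314, 335 and 354 CPM on soft/low AHA and 502, 498 and 545 CPM on stiff/high AHA gels (-0.62 ± 0.04 on the log2 scale, adjusted p = 8.83e-25). Itgb1, the β1 subunit shared by most matrix-binding integrins, was at 342, 360 and 367 CPM against 458, 464 and 479 CPM (-0.39 ± 0.04, adjusted p = 2.65e-12). Every soft library lay below every stiff library in both genes. Itga5, the α5 subunit of the fibronectin receptor, fell by 0.25 (SE 0.06, adjusted p = 0.00513), and Itga6, another laminin-binding subunit, by 0.19 (SE 0.05, adjusted p = 0.017) with overlapping groups. These were the 4 called of 18 integrin genes tested, all lower (list median -0.16, against 0.0024 over all tested genes). Itga5 and Itga6 were not called without soft/low AHA replicate 1 (adjusted p = 0.212 and 0.165) or without stiff/high AHA replicate 3 (adjusted p = 0.0861 and 0.121), and Itga6 was also lost without soft/low AHA replicate 3 (adjusted p = 0.141) and stiff/high AHA replicate 2 (adjusted p = 0.0956). The covariate of reads outside genes left Itga3 and Itgb1 called.

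Of 28 tested genes of the focal adhesion plaque, 14 fell and none rose, and 25 had a negative log2 fold change (median -0.18). Zyx, which encodes the tension-responsive LIM protein zyxin, was measured at 136, 140 and 145 CPM on soft/low AHA and at 208, 180 and 214 CPM on stiff/high AHA gels (-0.52 ± 0.06, adjusted p = 1.23e-09). Flnc, which encodes the actin crosslinker filamin C, was at 290, 346 and 331 CPM against 516, 428 and 477 CPM (-0.56 ± 0.06, adjusted p = 2.12e-07). The groups did not overlap in either gene. Bcar1, the adaptor p130Cas, fell by 0.36 (SE 0.05, adjusted p = 2.68e-08) and Actn1, the crosslinker α-actinin 1, by 0.25 (SE 0.04, adjusted p = 4.03e-07). Between 13 and 15 members were called with any 1 of the 6 libraries left out, 12 with the unaligned share as a covariate and 5 with reads outside genes as a covariate.

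Contractile genes moved with them. Of 30 actomyosin and actin-binding genes, 12 fell and 1 rose (median -0.15). Tpm1, a tropomyosin that lies along actin filaments, was at 741, 785 and 831 CPM on soft/low AHA gels and at 1041, 1025 and 1073 CPM on stiff/high AHA gels (-0.41 ± 0.04, adjusted p = 1.4e-17). Cald1, which encodes caldesmon, a regulator of actomyosin, was at 452, 519 and 537 CPM against 712, 694 and 724 CPM (-0.50 ± 0.04, adjusted p = 3.66e-16). In both genes the gap between the groups was wider than the spread within either. Acta2, smooth muscle α-actin, fell by 0.59 (SE 0.07, adjusted p = 1.52e-11), and Tagln, the actin-binding transgelin, by 0.61 (SE 0.06, adjusted p = 8.07e-16). Of the exon bases of Tagln, 67.9% lie opposite another gene, and whether the counting used strand was not given in the sources used here, so its count is uncertain. Actb, cytoplasmic β-actin, which is often used as a reference gene, also fell, by 0.16 (SE 0.03, adjusted p = 4.35e-05). Diaph1, a formin that nucleates actin filaments, was the 1 member called higher (0.14 ± 0.04, adjusted p = 0.0394), and its call was lost when any of the 6 libraries was left out (adjusted p of 0.0671 to 0.177). There were 6 members called, all lower, with reads outside genes as a covariate.

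The intermediate filament genes had the lowest median of the 23 lists. All 8 were lower in every soft/low AHA library than in any stiff/high AHA library, as were 1353 of all 13438 tested genes (10.1%). Of the 8, 6 were called, and the median was -0.39. Krt18 and Krt8 encode the keratin pair of simple epithelia. Krt18 was measured at 505, 564 and 582 CPM against 754, 729 and 772 CPM (-0.45 ± 0.04, adjusted p = 2.19e-16), and Krt8 fell by 0.43 (SE 0.05, adjusted p = 6.88e-14). Both have many processed pseudogenes in the mouse genome, so counts may be split among copies. Vim, the mesenchymal filament protein vimentin, was at 447, 461 and 498 CPM against 628, 617 and 614 CPM (-0.40 ± 0.04, adjusted p = 3.14e-14). Krt19, another epithelial keratin, was at 106, 120 and 117 CPM against 167, 161 and 178 CPM (-0.56 ± 0.06, adjusted p = 1.97e-12). With reads outside genes as a covariate 5 of the 8 were called, as with the unaligned share.

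TEAD targets were lower too, with 9 of 22 tested genes called lower and none higher (median -0.21). Ccn1, a secreted matricellular protein, was measured at 147, 147 and 163 CPM on soft/low AHA and at 203, 190 and 192 CPM on stiff/high AHA gels (-0.36 ± 0.06, adjusted p = 2.65e-06). Axl, a receptor tyrosine kinase, was at 26.5, 37.3 and 40.8 CPM against 58.9, 47.7 and 51.6 CPM (-0.60 ± 0.12, adjusted p = 0.000364). Neither gene overlapped between groups, although the soft libraries of Axl were widely spread. Amotl2, which encodes a YAP-binding angiomotin, fell by 0.21 (SE 0.04, adjusted p = 0.000286), and F3, tissue factor, by 0.59 (SE 0.11, adjusted p = 0.000112). The count of called members fell to 5 without stiff/high AHA replicate 1 and to 5 without stiff/high AHA replicate 3. It was 7 with the unaligned share and 1 with reads outside genes as a covariate.

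Promoter sequences are shown for the 4 called members of the actomyosin and TEAD lists with the lowest adjusted p among those whose promoter held the motif of their list. They come from RefSeq (build GRCm38.p6), cover 250 bases before to 50 bases after the start of the gene, and are written 5′ to 3′ on the gene's strand. Capitals mark the TEAD element, CATTCC on either strand, in Ccn1, Amotl2 and Axl, and the CArG box, the SRF-binding motif, in Cnn2, which encodes the actin-binding calponin 2. They lie at chr3:145649936-145650235 (minus strand, Ccn1), chr10:79988350-79988649 (plus strand, Cnn2), chr9:102717554-102717853 (plus strand, Amotl2) and chr7:25788684-25788983 (minus strand, Axl).
Ccn1: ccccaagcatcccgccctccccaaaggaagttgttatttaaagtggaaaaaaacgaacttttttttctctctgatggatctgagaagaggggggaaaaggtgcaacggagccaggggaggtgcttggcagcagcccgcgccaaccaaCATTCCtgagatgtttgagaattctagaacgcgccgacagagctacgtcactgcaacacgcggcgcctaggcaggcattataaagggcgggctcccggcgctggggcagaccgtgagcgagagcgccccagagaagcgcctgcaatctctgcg
Cnn2: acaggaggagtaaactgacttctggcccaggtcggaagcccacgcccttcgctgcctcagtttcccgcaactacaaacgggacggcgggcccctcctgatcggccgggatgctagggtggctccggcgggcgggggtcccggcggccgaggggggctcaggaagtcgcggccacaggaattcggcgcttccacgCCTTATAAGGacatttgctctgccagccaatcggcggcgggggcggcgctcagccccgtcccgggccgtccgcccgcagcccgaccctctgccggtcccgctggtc
Amotl2: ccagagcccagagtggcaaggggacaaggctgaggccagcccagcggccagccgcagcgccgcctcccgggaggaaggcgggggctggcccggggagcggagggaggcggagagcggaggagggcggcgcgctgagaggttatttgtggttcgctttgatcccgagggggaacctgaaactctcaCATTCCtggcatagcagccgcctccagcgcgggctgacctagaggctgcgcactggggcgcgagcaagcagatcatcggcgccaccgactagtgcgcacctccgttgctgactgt
Axl: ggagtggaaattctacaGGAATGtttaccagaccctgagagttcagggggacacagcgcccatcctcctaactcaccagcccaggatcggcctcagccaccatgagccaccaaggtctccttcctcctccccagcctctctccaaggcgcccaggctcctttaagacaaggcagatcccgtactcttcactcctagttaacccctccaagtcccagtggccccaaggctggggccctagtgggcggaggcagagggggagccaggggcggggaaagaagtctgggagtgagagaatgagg

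A RefSeq promoter was matched for 10516 of the tested genes. The CArG box was found in 5 of 25 actomyosin promoters, in 10 of 239 promoters of genes called lower (4.18%), in 0 of 152 promoters of genes called higher, in 1.56% of all tested genes with a promoter and in 1.81% of all 27025 genes with one. CATTCC was found in 8 of 14 TEAD target promoters, 21.8% of promoters of genes called lower, 17.1% of those called higher, 14.4% of tested genes and 16.6% of all genes. The ESRRB element, TCAAGGTCA on either strand, was found in 0 of 13 promoters of naive pluripotency genes and in 0.466% of all genes. A match describes letters in a window of fixed length and is not evidence of binding, and no match says only that these letters are not in the window.

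Matrix and junction genes were called in both directions, most of them lower. Of 29 ECM genes 8 fell and 1 rose (median -0.12). Serpinh1, the collagen chaperone HSP47, was at 87.7, 107 and 114 CPM on soft/low AHA and 143, 129 and 151 CPM on stiff/high AHA gels (-0.45 ± 0.07, adjusted p = 6.12e-07), and Col4a1 and Col4a2, neighbouring genes of basement membrane collagen IV, fell by 0.32 (SE 0.05, adjusted p = 2.84e-05) and 0.30 (SE 0.06, adjusted p = 0.000286). Lama1, the laminin α1 chain, went the other way with 174, 190 and 161 CPM against 147, 126 and 135 CPM (0.35 ± 0.06, adjusted p = 6.24e-05). Collagen IV and laminin α1, which meet in the same basement membrane, thus changed in opposite directions without overlap of the groups. The number of ECM genes called lower was 5 without soft/low AHA replicate 1 and 0 with reads outside genes as a covariate. The summed level of 8 fibroblast markers, Col1a1 among them, was also lower, at 116 to 137 CPM against 169 to 201 CPM. Most of that sum was Col1a1 (80.6, 98.1 and 102 CPM against 165, 127 and 144 CPM). Col1a2 was at 20.7 to 21.1 CPM against 21.4 to 24.1 CPM, also without overlap. The groups overlapped in the other 6, with Col3a1 at 7.92 to 10.4 CPM against 8.75 to 9.63 CPM, Thy1 at 2.15 to 6.02 CPM over all 6 libraries, and Dcn, Lum, Postn and Twist2 at 0 to 1.70 CPM, of which Lum was at 0 in all 3 soft/low AHA libraries.

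Among 20 genes of cell-cell junctions 5 fell and 1 rose (median -0.11). Pkp2 and Dsp encode the desmosome proteins plakophilin 2 and desmoplakin. Pkp2 was measured at 85.9, 84.3 and 92.2 CPM against 120, 120 and 117 CPM (-0.44 ± 0.07, adjusted p = 4.58e-06), and Dsp fell by 0.24 (SE 0.05, adjusted p = 9.53e-05). Cldn6, a claudin of tight junctions, fell by 0.41 (SE 0.09, adjusted p = 0.000894), and the gap junction gene Gja1 by 0.21 (SE 0.05, adjusted p = 0.00076), a call lost without stiff/high AHA replicate 3 (adjusted p = 0.0535). No junction gene was called with reads outside genes as a covariate, and 2 were with the unaligned share. Ocln, which encodes occludin of tight junctions, was the member called higher, and its call was lost without soft/low AHA replicates 1 or 2 (adjusted p = 0.1 and 0.0884) or stiff/high AHA replicate 1 (adjusted p = 0.194).

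Naive pluripotency genes were the list with the most calls in the upward direction. Of 20, 7 rose and none fell, 17 had a positive log2 fold change, and the median was 0.17. Nanog was measured at 140, 133 and 125 CPM on soft/low AHA and at 101, 102 and 103 CPM on stiff/high AHA gels (0.38 ± 0.07, adjusted p = 2.84e-05). Esrrb, an orphan nuclear receptor of the naive network, was at 301, 290 and 285 CPM against 249, 229 and 247 CPM (0.27 ± 0.05, adjusted p = 3.39e-05). Both genes separated the groups without overlap. Tfcp2l1, a transcription factor downstream of LIF, rose by 0.25 (SE 0.05, adjusted p = 0.00076), and Sox2 by 0.20 (SE 0.05, adjusted p = 0.005), a call that was lost without soft/low AHA replicate 1 (adjusted p = 0.0719) and stiff/high AHA replicate 3 (adjusted p = 0.0952). Pou5f1, which encodes OCT4, was at 550, 515 and 566 CPM against 518, 598 and 567 CPM, with overlapping groups (-0.04 ± 0.04, adjusted p = 0.724). Without soft/low AHA replicate 1, 3 naive genes were called, and without stiff/high AHA replicate 1, 4 were. With reads outside genes as a covariate none was, although the median was then 0.21, and with the unaligned share 6 were.

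Genes of the formative and primed epiblast, the stages that follow naive pluripotency, were mixed, with 1 higher and 2 lower of 16 tested (median -0.10). Etv4, an ETS factor that responds to ERK, was at 71.0, 60.2 and 69.2 CPM on soft/low AHA and 85.0, 105 and 93.1 CPM on stiff/high AHA gels (-0.49 ± 0.08, adjusted p = 5.96e-06). Zic2, a zinc-finger factor of the primed state, was instead higher (0.48 ± 0.13, adjusted p = 0.0162), and Utf1 was lower by 0.17 (SE 0.05, adjusted p = 0.0328). Zic2 was not called without soft/low AHA replicate 2 (adjusted p = 0.0971), stiff/high AHA replicate 2 (adjusted p = 0.0592) or replicate 3 (adjusted p = 0.197), and Utf1 was lost when any of the 6 libraries except stiff/high AHA replicate 2 was left out (adjusted p of 0.0546 to 0.227). Dnmt3b, the de novo DNA methyltransferase that marks formative cells, had a log2 fold change of -0.11 ± 0.04 (adjusted p = 0.105). The covariate of reads outside genes left 0 of these genes called and the unaligned share 1.

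In the LIF pathway, the receptor gene rose while a target gene fell. Lifr was measured at 147, 137 and 126 CPM against 111, 112 and 101 CPM (0.34 ± 0.07, adjusted p = 0.00015). Il6st, which encodes the co-receptor gp130, was not called (0.17 ± 0.07, adjusted p = 0.182). Pim1, a kinase gene induced by STAT3, was at 97.9, 98.6 and 90.8 CPM against 116, 113 and 122 CPM (-0.29 ± 0.07, adjusted p = 0.00458), and Ptpn11, the phosphatase SHP2 that links the receptor to ERK, fell by 0.20 (SE 0.05, adjusted p = 0.015). The calls of Pim1 and Ptpn11 were lost without stiff/high AHA replicate 3 (adjusted p = 0.0549 and 0.168), that of Pim1 also without soft/low AHA replicate 3 (adjusted p = 0.0635) and that of Ptpn11 without soft/low AHA replicate 1 (adjusted p = 0.129). These 3 were the called members of 12 tested (median 0.01), of which 0 were called with reads outside genes as a covariate and 1 with the unaligned share.

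ERK feedback genes, which ERK induces and whose products limit it, were called lower in 6 of 18 cases and higher in none (median -0.16). Dusp4, a nuclear phosphatase of ERK, was at 100, 112 and 109 CPM on soft/low AHA and 153, 156 and 156 CPM on stiff/high AHA gels (-0.53 ± 0.06, adjusted p = 5.5e-11). The related phosphatase genes Dusp14 and Dusp5 were lower as well. Dusp14 fell by 0.73 (SE 0.13, adjusted p = 3.16e-05) and Dusp5 by 0.38 (SE 0.09, adjusted p = 0.00299), although 22.1% of the exon bases of Dusp5 lie opposite another gene. Dusp4 was the only member called with reads outside genes as a covariate. Of 17 immediate early genes, which growth factors induce within minutes, Fos rose while Ier3 and Myc fell (median -0.05). Ier3 was low throughout, at 3.41, 3.96 and 2.90 CPM against 7.37, 6.02 and 9.19 CPM (-1.15 ± 0.30, adjusted p = 0.00864). Myc fell by 0.26 (SE 0.07, adjusted p = 0.0114). Both lost their call without stiff/high AHA replicate 3 (adjusted p = 0.12 and 0.223), Ier3 also without soft/low AHA replicate 3 (adjusted p = 0.0683), and Myc without soft/low AHA replicate 1 (adjusted p = 0.0842) or 2 (adjusted p = 0.103). With the 2 covariates, reads outside genes and unaligned reads, 0 and 2 of the immediate early genes were called.

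Metabolic and stress genes gave few calls, and with reads outside genes as a covariate Slc2a1 and Ccng1 alone of those named here were called. Of 22 genes of cholesterol synthesis 18 had a negative log2 fold change (median -0.10). Msmo1, a sterol demethylation enzyme, was at 49.5, 48.1 and 43.9 CPM against 69.1, 63.6 and 68.0 CPM, and it fell by 0.51 (SE 0.09, adjusted p = 3.8e-05). Of 24 glycolysis and hypoxia genes, the glucose transporter genes Slc2a1 and Slc2a3 fell by 0.28 (SE 0.04, adjusted p = 1.4e-07) and 0.17 (SE 0.04, adjusted p = 0.00107). The phosphofructokinase gene Pfkp was called higher (0.21 ± 0.07, adjusted p = 0.0442) and lost its call when any of the 6 libraries except stiff/high AHA replicate 2 was left out (adjusted p of 0.0711 to 0.306). Of 17 heat shock and chaperone genes 3 fell, all of them chaperones of the endoplasmic reticulum. Hsp90b1 fell by 0.15 (SE 0.03, adjusted p = 0.00327), Hspa5 by 0.17 (SE 0.04, adjusted p = 0.00729) and Calr by 0.12 (SE 0.04, adjusted p = 0.0409), and none of the 3 was called without soft/low AHA replicate 2 (adjusted p = 0.0813, 0.106 and 0.377). Hspa5 was also lost without soft/low AHA replicate 1 (adjusted p = 0.0653) and stiff/high AHA replicate 3 (adjusted p = 0.156), and Calr without soft/low AHA replicate 1 (adjusted p = 0.0641) and stiff/high AHA replicates 1 (adjusted p = 0.0628) and 2 (adjusted p = 0.344), and without stiff, low AHA replicate 3 (adjusted p = 0.0531), which shares the estimate of the spread. Among 14 p53 targets and arrest genes the cyclin G1 gene Ccng1 alone was called (-0.19 ± 0.04, adjusted p = 0.000613). No call was made by edgeR among 18 ATF4 stress genes (2 at an unadjusted p under 0.05 and 0 called by DESeq2) or 21 proliferation genes (4 at an unadjusted p under 0.05 and 0 called by DESeq2), whose medians were 0.03 and -0.01.

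Markers of other cells were few in number of calls. The summed levels of 6 primitive endoderm markers were 35.6 to 40.5 CPM on soft/low AHA and 36.6 to 40.7 CPM on stiff/high AHA gels. Those of 5 germ layer markers were 28.9 to 33.1 and 26.3 to 30.2 CPM, and no member of either was called. The sum of 4 trophoblast markers was lower on soft/low AHA gels, at 45.3 to 59.4 CPM against 62.1 to 74.3 CPM. Of these Hand1 was called (27.7, 31.9 and 41.2 CPM against 49.9, 44.3 and 46.7 CPM, -0.48 ± 0.12, adjusted p = 0.00393), a call lost without soft/low AHA replicate 1 (adjusted p = 0.116). The groups overlapped in Gata3, Cdx2 and Elf5. Summed over the tested members of longer lists, 11 trophoblast genes were at 282 to 308 CPM against 296 to 315 CPM, with overlap. The 12 primitive endoderm genes were at 341 to 348 CPM against 396 to 426 CPM, without overlap. Of the longer lists, 1 of 12 primitive endoderm genes (Col4a1, also an ECM gene), 1 of 11 trophoblast genes (Hand1) and 1 of 8 fibroblast genes (Col1a1) were called lower, none was called higher, and 0 of 12 germ layer genes (2 at an unadjusted p under 0.05 and 0 called by DESeq2) and 0 of 7 genes of two-cell-like cells (0 at an unadjusted p under 0.05 and 0 called by DESeq2) were called. Col1a1 (-0.64 ± 0.14, adjusted p = 0.0305) was not called without soft/low AHA replicate 1 (adjusted p = 0.113) or 2 (adjusted p = 0.0805) or stiff/high AHA replicate 1 (adjusted p = 0.0906) or 3 (adjusted p = 0.0895). The part of these cells in the differences above was not tested.

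**Figure D3:**
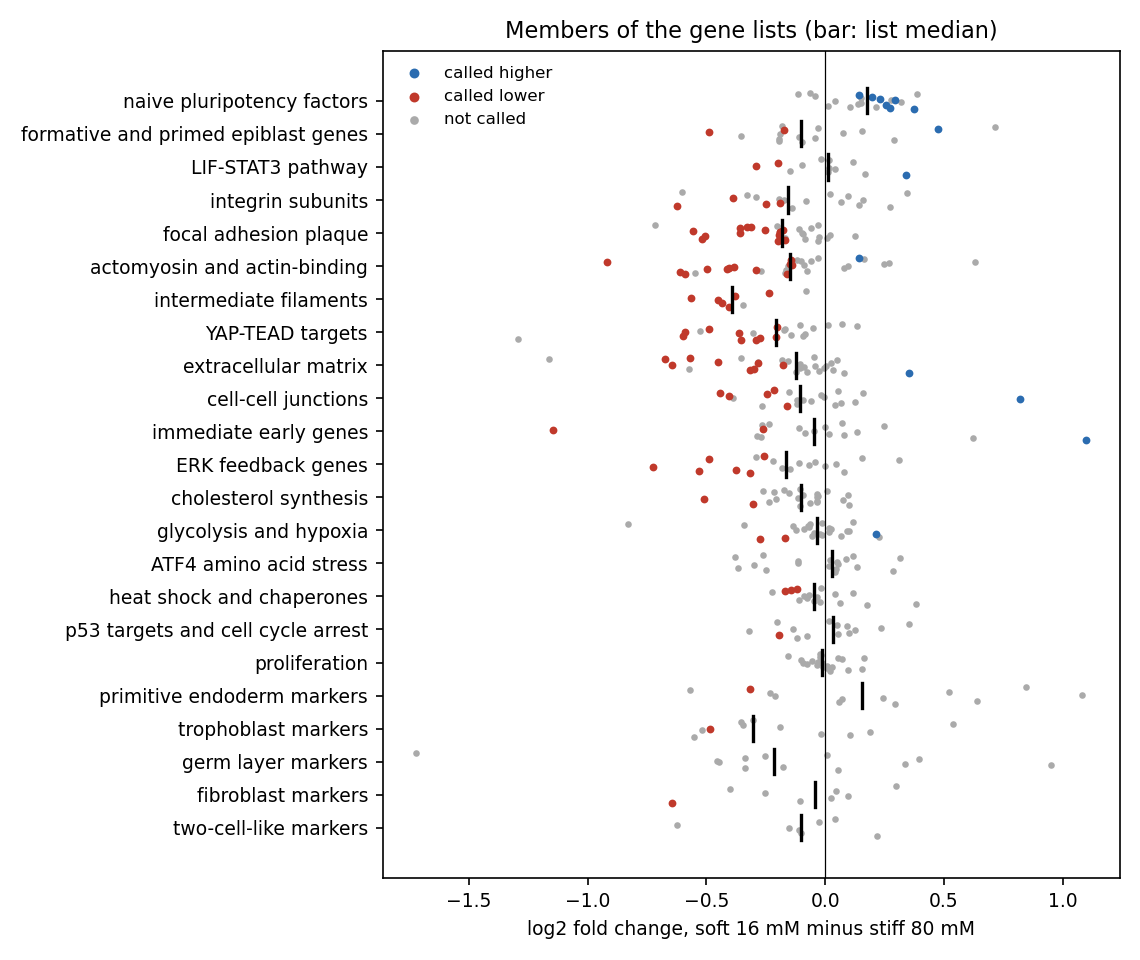
Log2 fold change (soft/low AHA minus stiff/high AHA) of every tested member of 23 gene lists, with called members in colour and a bar at each list's median. Focal adhesion, actomyosin, intermediate filament and TEAD target genes lie mostly below 0 with medians of -0.18, -0.15, -0.39 and -0.21, and naive pluripotency genes mostly above 0 with a median of 0.17.

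Genes called higher were longer than genes called lower. The median exon length was 8054 bases for the 193 higher genes, 4432 bases for the 309 lower genes and 4497.5 bases for all tested genes. Among the 3361 tested genes with the shortest exons, 24 were called higher and 85 lower, and among the 3359 with the longest, 109 were higher and 71 lower. The median log2 fold change was -0.02 in the former and 0.03 in the latter, a shift that is small beside the called changes. Its part in single calls was not tested.

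The other substrates were used to ask how much of the contrast moved with stiffness and how much with tethering. On the opposite diagonal of the design, soft gels with 80 mM AHA minus stiff gels with 16 mM AHA, stiffness changed in the same direction and tethering in the other, and no library is shared with the comparison described here. That contrast had 145 called genes (1.08%), with 2 soft libraries because 1 with a high ERCC share was left out. Of the 502 genes, 412 had the same sign there (82.1%, against 55.7% of all tested genes) and 76 were called, which is 15.1% of the 502 and 52.4% of the 145. The 309 lower genes had a median log2 fold change of -0.33 in the soft/low AHA minus stiff/high AHA contrast and -0.16 on the opposite diagonal, and the 193 higher genes 0.26 and 0.08. The 502 genes were chosen for their values in the first of these contrasts. In the 145 genes chosen in the second, the median size was 0.33 there and 0.22 in the first. The 145 became 62 without soft, high AHA replicate 2, 88 without its replicate 3 and 83 without stiff, low AHA replicate 3. It became 340 with all 18 libraries, and 331 and 269 with soft, high AHA replicate 2 or 3 left out in place of replicate 1. At 48 mM AHA, also in other libraries, 460 of the 502 had the same sign (91.6%, against 59.7% of all genes).

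Itga3 and Flnc followed stiffness. In the opposite diagonal Itga3 had a log2 fold change of -0.57 ± 0.05 (adjusted p = 4.17e-18) and Flnc of -0.63 ± 0.07 (adjusted p = 1.08e-06), beside -0.62 and -0.56 in soft/low AHA minus stiff/high AHA. Mean levels of Itga3 were 335, 342 and 357 CPM on soft gels with 16, 48 and 80 mM AHA and 531, 491 and 515 CPM on stiff gels, so that all soft groups lay below all stiff groups. Nanog (0.45 ± 0.07, adjusted p = 1.51e-05) and Esrrb (0.30 ± 0.05, adjusted p = 0.000164) were likewise called on the opposite diagonal in the same direction. The naive genes had a median of 0.28 there, beside 0.17, and none of the 20 was called for a difference between the diagonals.

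**Figure D4:**
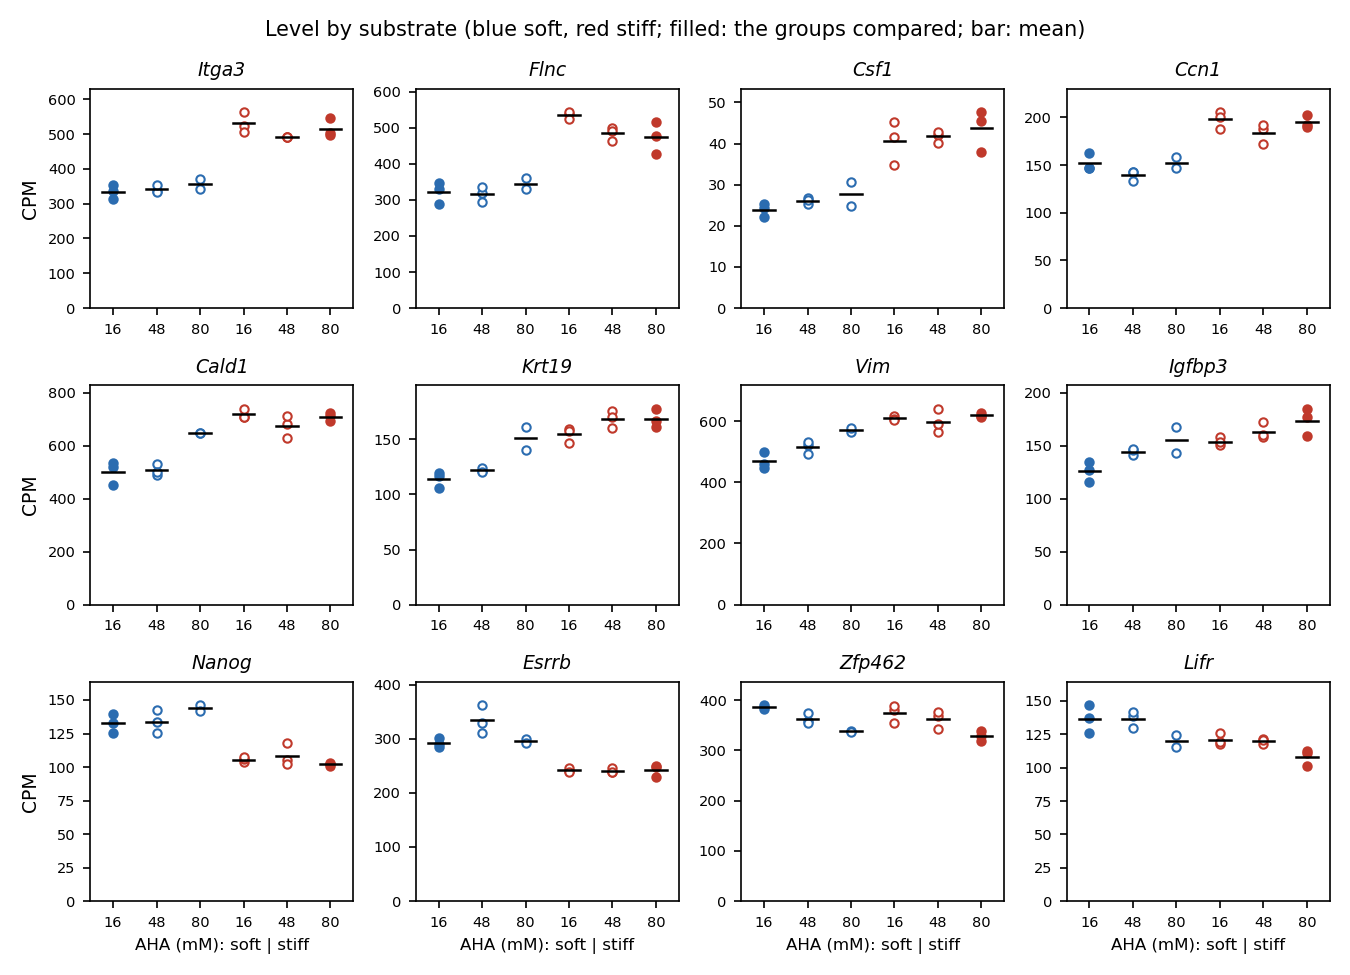
CPM in every fitted library for 12 genes on soft (blue) and stiff (red) gels with 16, 48 and 80 mM AHA, with bars at the group means and filled points for the groups compared. Itga3, Flnc, Csf1 and Ccn1 split by stiffness, whereas Krt19, Cald1 and Vim on soft gels with 80 mM AHA lie near their levels on stiff gels.

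A test of the difference between the diagonals, which equals the low minus high AHA differences summed over both stiffnesses, called 15 genes (0.112%). At an unadjusted p under 0.05 there were 1161. None of the 15 was called with reads outside genes as a covariate, and 6 were with the unaligned share. The calls also turned on the choice of soft, 80 mM AHA libraries: 9 of the 15 were called with all 18 libraries, 5 when replicate 2 was left out in place of replicate 1, and 9 when replicate 3 was. All 15 kept their sign in each of these fits. Krt19 and Zfp462 had the lowest adjusted p of the difference (0.000547 each by edgeR). The mean of Krt19 was 114 ± 7.13 CPM (SD, n = 3) on soft gels with 16 mM, 122 ± 2.05 CPM (n = 3) with 48 mM and 151 ± 15.1 CPM (n = 2) with 80 mM AHA, and 155 ± 7.16, 169 ± 7.71 and 169 ± 8.38 CPM (n = 3 each) on stiff gels. It fell by 0.56 in soft/low AHA minus stiff/high AHA while the opposite diagonal gave -0.03 ± 0.07 (adjusted p = 0.915), and the difference was -0.53 ± 0.09 (adjusted p = 0.000547). Cald1 (-0.50 against -0.15, adjusted p of the difference = 0.00204), Vim (-0.40 against -0.10, adjusted p = 0.00485) and Igfbp3, an IGF-binding protein (-0.46 against 0.02, adjusted p = 0.00242), went the same way. On soft gels alone, 16 mM minus 80 mM AHA gave log2 fold changes of -0.41 for Krt19, -0.37 for Cald1 and -0.28 for Vim (adjusted p = 0.000146, 2.44e-07 and 3.83e-05). On stiff gels the same contrast gave -0.12, 0.02 and -0.03, none of which was called. Krt19, Vim and Zfp462 remained called for the difference with all 18 libraries and with either other soft, 80 mM AHA library left out in place of replicate 1. Cald1 did not (adjusted p = 0.0918, 0.214 and 0.147), nor did Igfbp3 with replicate 2 left out (adjusted p = 0.193). Without soft, 80 mM AHA replicate 2 as well as replicate 1, Krt19 (adjusted p = 0.208) and Igfbp3 (adjusted p = 0.363) were not called, and without soft/low AHA replicate 1 Vim was not (adjusted p = 0.0635).

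Zfp462, a zinc-finger gene linked to pluripotency, had the same low minus high AHA difference on both stiffnesses. It was measured at 390, 386 and 382 CPM on soft/low AHA and 329, 338 and 318 CPM on stiff/high AHA gels (0.23 ± 0.05, adjusted p = 0.000104), whereas the opposite diagonal gave -0.15 ± 0.05 (adjusted p = 0.149). The difference between the diagonals was 0.38 ± 0.07 (adjusted p = 0.000547). The low minus high AHA difference was 0.19 ± 0.05 on soft gels (adjusted p = 0.063) and 0.19 ± 0.05 on stiff gels (adjusted p = 0.129), neither called by itself. With reads outside genes as a covariate the adjusted p of the diagonal difference was 0.384 for Zfp462 and 0.12 to 0.621 for Krt19, Cald1, Vim and Igfbp3.

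Across all genes, the contrast shares its soft/low AHA libraries with 16 mM minus 80 mM AHA on soft gels, which called 34 genes (0.253%, 5 higher and 29 lower), and its stiff/high AHA libraries with 16 mM minus 80 mM AHA on stiff gels, which called 1 (0.00744%). At an unadjusted p under 0.05 there were 1144 and 812 genes. With reads outside genes as a covariate the 34 became 1. Within soft gels the count fell to 8 without soft, low AHA replicate 1 and 2 without soft, high AHA replicate 2, and rose to 69 without soft, high AHA replicate 3. On stiff gels it ranged from 0 to 15 as libraries were left out, with 15 reached without stiff, high AHA replicate 1. The diagonal difference gave 65 genes without soft, high AHA replicate 3, 36 without stiff, high AHA replicate 1, 23 without soft, low AHA replicate 3, 8 without its replicate 1, 7 without stiff, high AHA replicate 3 and 5 without soft, high AHA replicate 2. Averaged over the AHA levels or stiffnesses at the corners of the design, the 309 lower genes had a median stiffness difference of -0.25 and a median AHA difference of -0.10, and the 193 higher genes 0.18 and 0.09. These parts add up to the contrast in each gene and use its own libraries, so they describe it and are not a further test.

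**Figure D5:**
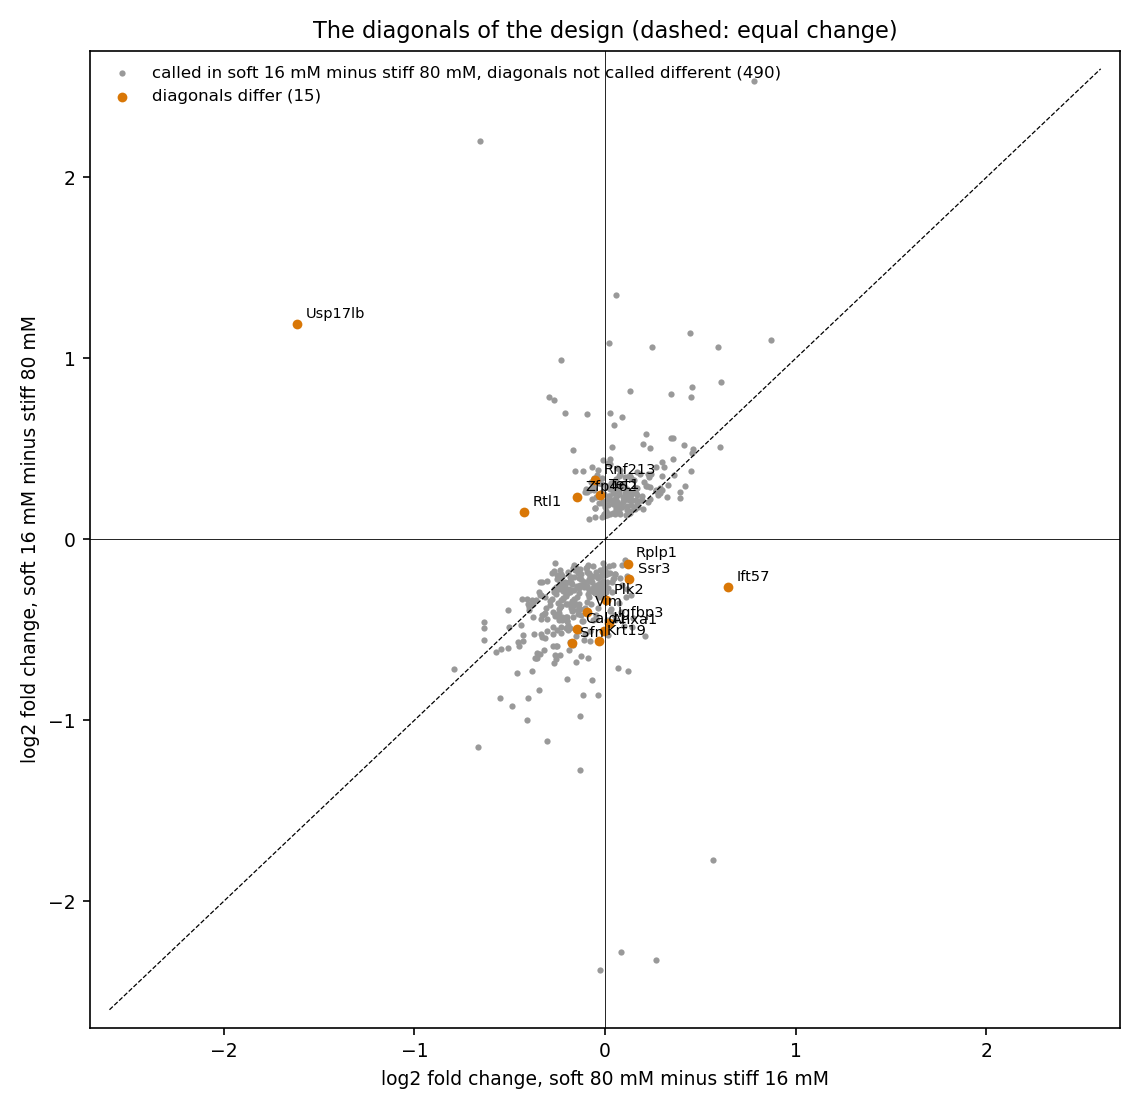
Log2 fold change of soft/low AHA minus stiff/high AHA (vertical) against soft, 80 mM minus stiff, 16 mM AHA (horizontal) for the 502 genes called in the former and for the 15 genes whose diagonals differed (orange), of which 12 are among the 502 and 3 are not. Most of the 502 share their sign on both axes (412). Krt19, Igfbp3, Anxa1 and Plk2 among the lower genes, and Tet1 and Rnf213 among the higher, lie near 0 on the horizontal axis only.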

How the data were processed

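RNA sequencing libraries from total RNA (Takara pico mammalian v2 kit) were analysed. Per the labels and the submitters' processing notes, the authors trimmed reads with Trim Galore 0.4.4, aligned them to mm10 with GSNAP (2015-09-29) and used HTSeq to count them over Ensembl genes. The deposited table held these raw counts without normalisation for 46078 gene identifiers, 92 ERCC and 7 SIRV spike-ins and 5 summary lines. Whether counting used strand is not given in the sources used here. The summary lines, 61.5 to 64.0% of each column, stayed out of library sizes and tests. Names and exons came from GENCODE M21, which named 45143 identifiers.

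Protein-coding genes passing filterByExpr (minimum count 10) were scaled by TMM and fitted with edgeR 4.0.16 in R 4.3.3 (robust quasi-likelihood, 1 coefficient for each of 6 groups, 17 libraries). The soft, 80 mM AHA library with 1.37% ERCC counts was left out because the study set aside libraries rich in ERCC. P-values were two-sided and adjusted by Benjamini-Hochberg within each contrast over 13438 genes, and standard errors came from the quasi-likelihood F statistic. The biological coefficient of variation was 5.35%. Replicate libraries differed by more than counting noise (chi-square over its degrees of freedom, 1.82 to 2.80 for the pairs within each group). An exact permutation test of 3 against 3 libraries cannot go below p = 0.1 and was not used. The fits were tested on counts simulated from the fitted model. These held no difference in library shares between groups, so that test says nothing about the covariates.

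Genes named were the 10 highest and 10 lowest called log2 fold changes at a mean of at least 5 CPM, up to 4 members with the lowest adjusted p in each of 23 lists with called members that went against their list, the 5 lowest adjusted p of the diagonal difference, and Pou5f1, Sox2, Nanog and Actb. Results for 2 of these genes are not reported here. The members and lists were chosen with earlier results of these data known. Alternatives were RLE scaling, DESeq2 1.42.0, a filter of at least 2 counts, all biotypes, only the groups compared, all 18 libraries, other soft, 80 mM AHA libraries left out, and each library left out in turn. Fits with library shares as covariates were chosen after the data were seen.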

Additional observations from a re-analysis of the deposited data

Results flagged for a closer look

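The soft minus stiff effect differed between the diagonals of the design (low AHA on soft and high on stiff gels, against high on soft and low on stiff gels) in 15 genes by edgeR's quasi-likelihood test of the difference itself, adjusted over all tested genes. None of the 15 was called with the share of reads outside genes as a covariate, and 5 to 9 of the 15 were called when all 18 libraries were fitted or another soft, 80 mM AHA library was left out. The difference equals the low minus high AHA differences summed over both stiffnesses. It does not test whether the soft minus stiff effect changed with AHA. A negative difference means that the gene was lower with low AHA in that sum. In log2 units it was -0.53 for Krt19, -0.48 for Igfbp3, -0.35 for Cald1 and -0.31 for Vim, and 0.38 for Zfp462.

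A further 6 genes were lower with low AHA in the same sense. They were Ift57, an intraflagellar transport gene (-0.91), Anxa1, which encodes annexin A1 (-0.50), Sfn, 14-3-3 sigma (-0.40), Ssr3, a translocon-associated protein of the endoplasmic reticulum (-0.35), Plk2, a polo-like kinase (-0.34), and Rplp1, a ribosomal stalk protein (-0.25). Another 4 were higher with low AHA, namely Usp17lb (2.81), the imprinted gene Rtl1 (0.57), Rnf213 (0.38) and Tet1, which encodes an enzyme that oxidises 5-methylcytosine (0.27). Usp17lb was at 1.38 to 5.42 CPM in the 6 libraries and belongs to a family of near-identical genes, so its count is uncertain. Tet1 was at 1065, 1067 and 1004 CPM on soft/low AHA and at 894, 940 and 813 CPM on stiff/high AHA gels (0.25 ± 0.04, adjusted p = 5.04e-06), with no overlap, and was at -0.02 ± 0.04 (adjusted p = 0.904) on the opposite diagonal. In Ift57, Rtl1 and Usp17lb the soft/low AHA minus stiff/high AHA difference was itself not called (adjusted p = 0.391, 0.426 and 0.066).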

How the results depend on the processing

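The 502 genes called between soft/low AHA and stiff/high AHA gels became 371 with DESeq2 and 496 to 563 under the other changes of scaling, filter, biotype or libraries fitted, and 284 to 551 when 1 library was left out. The share of reads outside genes as a covariate gave 42 and the unaligned share 206. In these fits 499 and 502 of the 502 genes kept their sign. The median ratio of their log2 fold changes to those of the main fit was 0.85 and 0.92. Of 77 named called genes, 48 kept their call under all 19 alternatives chosen at the start, 29 lost it under at least 1, and 0 changed sign. With reads outside genes as a covariate 16 of the 77 were called and with the unaligned share 44.

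On the opposite diagonal 145 calls became 340 with all 18 libraries, 331 and 269 with soft, 80 mM AHA replicate 2 or 3 left out in place of replicate 1, and 62 to 150 without 1 library. The diagonal difference (15) became 7 (6 of the 15 among them) with DESeq2, 28 with genes of at least 2 counts, 28 with all biotypes, 21 (9) with all 18 libraries, 17 (5) and 27 (9) with soft, 80 mM AHA replicate 2 or 3 left out in place of replicate 1, 5 to 65 without 1 library, and 0 and 7 with the covariates of reads outside genes and unaligned reads. On stiff gels, 16 mM minus 80 mM AHA (1) became 0 with DESeq2 and all biotypes, 9 with genes of at least 2 counts, 11 with only the groups compared, 3 with all 18 libraries, 4 with either other soft, 80 mM AHA library left out, 0 to 15 without 1 library and 0 with either covariate. On soft gels the contrast (34) became 2 to 69 without 1 library and 1 with the covariate of reads outside genes, and 24, 9 and 15 of the 34 were called with all 18 libraries and with replicate 2 or 3 left out in place of replicate 1.

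Uncalled genes whose sign changed as 1 library was left out were Loxl1 (-0.041 to 0.599), Zscan4c (-0.106 to 0.495), Eif1a (-0.0185 to 0.111), Usp17lc (-0.322 to 0.114) and Pou5f1 (-0.0980 to 0.00339). With reads outside genes as a covariate Usp17lc (0.0725) and Pou5f1 (0.0401) changed sign, and with unaligned reads Eif1a (-0.0614) and Pou5f1 (0.00344). The causes were not tested. The labels share no replicate numbers between groups. No paired analysis was possible because the titles number the samples 1 to 18. The depth of 5850621 to 9290261 counts limits genes of low level, where the called fold changes are widest.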
